A study of Danio rerio with 9 samples.

Results

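Inorganic pyrophosphate blocks the growth of bone mineral. Most genes followed here make it, export its precursor or itself, or remove it, and entpd5a acts on nucleoside diphosphates. The set was fixed by name as entpd5a, enpp1, alpl, ankha, ankhb, abcc6a and abcc6b. These 7 names matched 8 of the 32266 Ensembl gene IDs in each count file. The naming table calls entpd5a ENTPD5 (ENSDARG00000053481), enpp1 by that name (ENSDARG00000005789) and alpl ALPL (ENSDARG00000015546). ANKH is the name of both ENSDARG00000014969 and ENSDARG00000071724, and the table does not say which is ankha and which is ankhb. The exporter abcc6a is ENSDARG00000016750, and abcc6b is divided into abcc6b.1 (ENSDARG00000105403) and abcc6b.2 (ENSDARG00000094901). Genome positions were not used here.

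As background, ENPP1 is an ectoenzyme that cuts extracellular ATP into AMP and pyrophosphate. ABCC6 proteins promote the release of ATP from cells, ANKH proteins move ATP or pyrophosphate out of cells, and tissue-nonspecific alkaline phosphatase, the product of alpl, splits pyrophosphate into phosphate. ENTPD5 proteins hydrolyse nucleoside diphosphates and release phosphate. In zebrafish, loss of entpd5a abolishes bone mineral, whereas loss of enpp1 or of abcc6a leads to excess mineral, including along the spine. The notochord sheath is the epithelial layer around the notochord in which the first mineral of the zebrafish vertebral column forms.

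The labels describe the source of the RNA as notochord sheath cells of 13-day-old zebrafish (strain EK). Cells were sorted by fluorescence on col9a2 and entpd5a reporters into col9a2+, double-positive and entpd5a+ cells, with 3 libraries each. Marker levels of these populations are given below. The design describes transgenic fish, while the genotype label of every sample reads wild type, and neither names the reporter constructs. Whether replicates came from separate fish, pools or sorts is not stated in the sources used here, and the p values therefore cover only the spread among the libraries at hand, which may be technical. In sorted bulk RNA, fewer cells of a type and less RNA per cell cannot be told apart. The comparisons ask how the balance of makers, exporters and removers differs between cells with the cartilage-type reporter, the mineralization reporter, or both.

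Library totals ran from 39955994 to 81471212 counts, and 19039 genes passed the count filter, including all 8 pyrophosphate balance genes. Some libraries stood apart. The third library of each population and entpd5a+ library 2, 4 in all, were deeper (at least 67788360 counts). They held the heat shock gene hsp70l at 17960.6 to 27157 CPM, against 277 to 909 CPM in the 5 shallower libraries. Depth and hsp70l level thus cannot be told apart here, and the depth groups and depth term used below stand for both. CPM is the usual read count scaled to library size, here after TMM adjustment. Double-positive library 1 held 5 endothelial markers at a summed 204 CPM, against 0.468 to 10.1 CPM elsewhere. The notochord factor tbxta was present in all 9 libraries, at 926 to 4465 CPM in col9a2+ and double-positive cells and 115 to 805 CPM in entpd5a+ cells. A list of 9 sheath marker IDs, with tbxta and the sort gene col9a2 among them, summed to 41687 to 66157 CPM in col9a2+ libraries. Its sums were 29124 to 46726 in double-positive and 7709.5 to 13797 in entpd5a+ libraries. Of that list, krt18a.1 (at least 4348 against at most 1537 CPM) and krt8 (1271 against 1165) were higher in entpd5a+ than in col9a2+ libraries. For col8a1a these populations overlapped, and the other IDs were lower in entpd5a+ cells. Double-positive libraries were lower than col9a2+ libraries in col9a2 (811 to 1580 against 7738 to 11560 CPM) and both COL2A1 IDs. For COL2A1 (ENSDARG00000069093) the ranges were 1707 to 5144 against 28725 to 50522 CPM. They were higher in col8a1a (8508 to 19121 against 142 to 676.5 CPM), krt18a.1, krt8 and both SHH IDs, and overlapped in tbxta. A list of 9 osteoblast marker IDs summed to 4829 to 10623 CPM in col9a2+, 6657.5 to 31985.5 in double-positive and 93802 to 170759 in entpd5a+ libraries. SP7, the osteoblast transcription factor osterix, was at 2.45 to 19.8, 12.4 to 43.9 and 76.8 to 323 CPM in that order. Not all of the list followed it. The marker bglap did not exceed 0.225 CPM in any library. RUNX2 (ENSDARG00000040261), at 9.76 to 26.5 CPM in entpd5a+ libraries, overlapped with double-positive libraries (4.765 to 13.7 CPM).

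The genes grouped as removers, entpd5a and alpl, come first, although ENTPD5 proteins act on nucleoside diphosphates. Because entpd5a is the gene behind one of the reporters, its levels describe the sort and were not tested. It stood at 253, 452 and 129 CPM in col9a2+ libraries 1 to 3. Double-positive libraries held 10369.8, 18679 and 13084 CPM. In entpd5a+ libraries the values were 5678, 3955 and 3142 CPM. The 3 populations did not overlap, and the order was double-positive, then entpd5a+, then col9a2+. The entpd5a transcript was therefore most abundant in the cells that carried both reporters, not in those sorted for the entpd5a reporter alone. The related gene entpd5b has an ID of its own and stayed between 6.44 and 22.7 CPM in all 9 libraries.

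The alkaline phosphatase gene alpl was scarce in all 3 populations. Its levels were 12.8, 7.95 and 4.92 CPM in col9a2+ libraries, 9.19, 0.650 and 3.33 CPM in double-positive libraries, and 17.97, 15.8 and 7.36 CPM in entpd5a+ libraries. Every pair of populations overlapped. Between entpd5a+ and double-positive cells the log2 difference was 1.64 ± 0.81 (standard error; adjusted p = 0.291 from edgeR's quasi-likelihood test, adjusted over all genes by Benjamini and Hochberg's method). Against col9a2+ cells it was 0.68 ± 0.79 for entpd5a+ (adjusted p = 0.766) and -0.96 ± 0.79 for double-positive cells (adjusted p = 0.66). The highest double-positive value was that of library 1, which held the endothelial markers. Without that library the double-positive level differed by -2.09 from col9a2+ cells (adjusted p = 0.253), and entpd5a+ cells differed from it by 2.77 (adjusted p = 0.0981). Within double-positive cells the osteoblast marker sum was also highest in library 1 and lowest in library 2, as alpl was. Within col9a2+ and within entpd5a+ cells the orders of that sum and of alpl differed. The osteoclast marker sum (3 IDs) had the same order as alpl within each population. It was 36.7, 25.3 and 22.15 CPM in col9a2+ libraries 1 to 3 and 20.3, 2.52 and 8.08 CPM in double-positive libraries. In entpd5a+ libraries it was 54.75, 47.4 and 34.3 CPM. Of the 3 IDs, 2 were above 0 in col9a2+ library 3 and in entpd5a+ library 1. CTSK, which is among them, had the profile nearest to alpl in the search below, so the shared order may rest on that gene. The part of endothelial, osteoblast or osteoclast RNA in the alpl values was not tested.

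**Figure D1:**
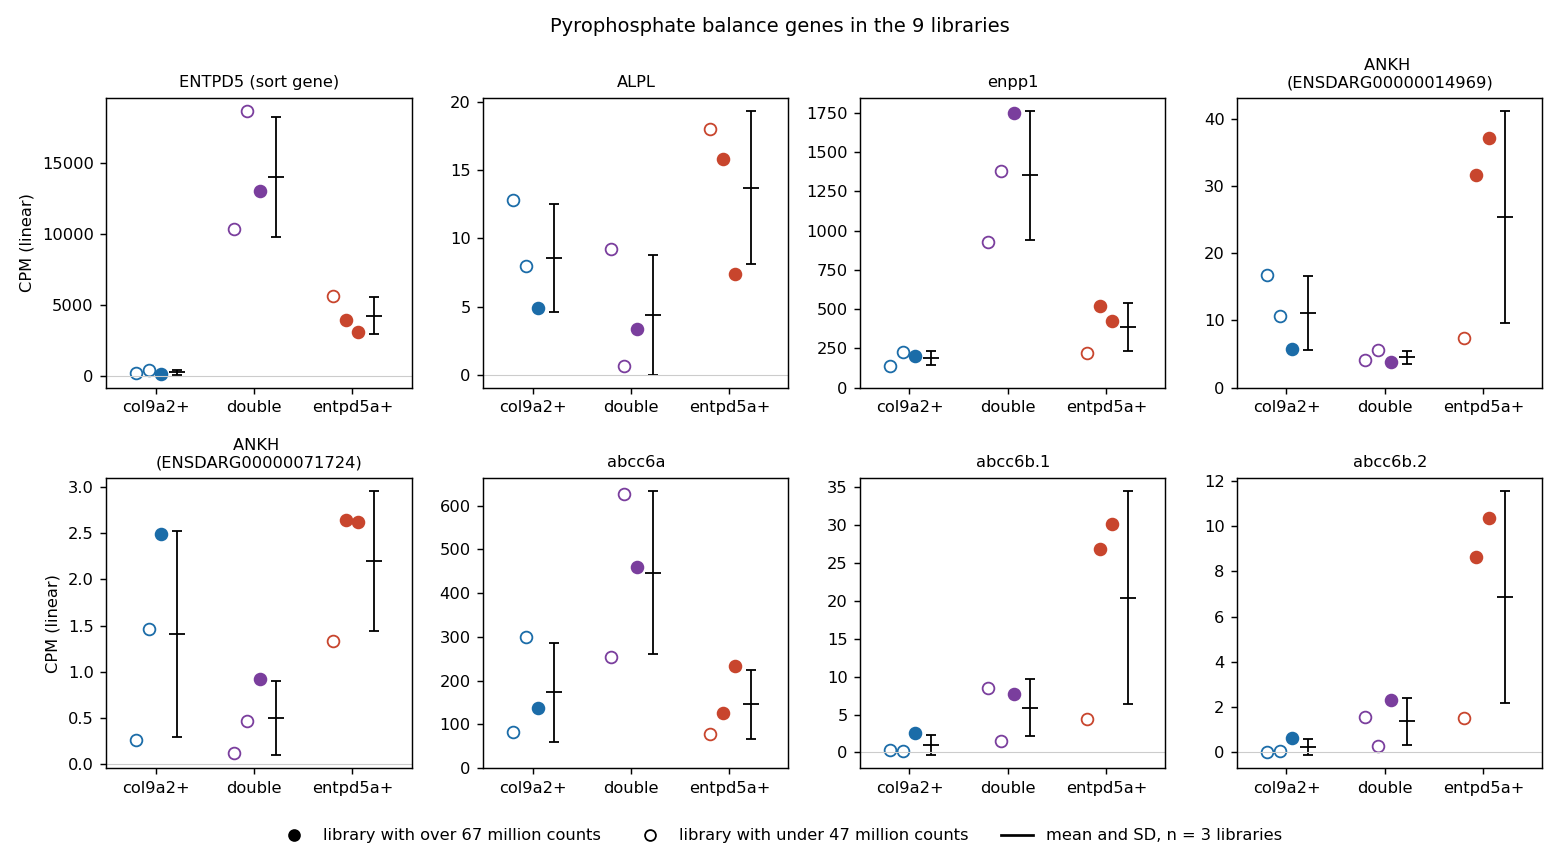
CPM (linear axis) of the 8 pyrophosphate balance genes in the 9 libraries, with the mean and SD of each population beside its 3 points; filled points are the 4 deeper libraries. In double-positive cells entpd5a and enpp1 stand above every other library, while the ANKH gene ENSDARG00000014969 and both abcc6b copies are highest in the 2 deeper entpd5a+ libraries.

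The maker, enpp1, was highest in double-positive cells. It stood at 138, 225 and 202 CPM in col9a2+ libraries, at 924, 1381 and 1747 CPM in double-positive libraries, and at 219, 519 and 427 CPM in entpd5a+ libraries. Double-positive libraries lay above all others, and the remaining populations overlapped, since entpd5a+ library 1 fell below the highest col9a2+ value. From col9a2+ to double-positive cells enpp1 rose 7.17-fold, by 2.84 ± 0.47 on the log2 scale (adjusted p = 0.0115). It was the only one of the 7 tested genes that passed in this comparison, in which 3.54% of all genes were called, 1.68% higher and 1.86% lower. The call was lost without col9a2+ library 1 (2.66, adjusted p = 0.069) and kept without each of the other 8 libraries. Inside the depth groups the difference of mean log2 CPM was 3.11 in the deeper and 2.68 in the shallower libraries.

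From double-positive to entpd5a+ cells enpp1 fell by 1.80 ± 0.45 on the log2 scale, a 3.48-fold difference with adjusted p = 0.0451. In this comparison 2 of the 7 genes were called, enpp1 lower and an ANKH gene higher, against a background of 6.51% of all genes, 3.06% higher and 3.45% lower. The enpp1 call lay close to the threshold and was lost without each of the 9 libraries in turn (adjusted p between 0.0535 and 0.119, log2 difference between -2.06 and -1.51). In a model that also held the depth group, enpp1 differed by -2.04 (adjusted p = 0.00804). In a fit of the 6 libraries compared, the call was lost without the replicate block (adjusted p = 0.0999) and with it (0.0843). Between entpd5a+ and col9a2+ cells, enpp1 differed by 1.04 ± 0.45 (adjusted p = 0.269). None of the 7 genes was called in that comparison by edgeR, where 5.02% of all genes were (2.68% higher, 2.34% lower), and 3 had an unadjusted p under 0.05. DESeq2 called 2, both abcc6b copies, among 2159 of all 19039 genes tested.

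Of the exporters, abcc6a had its highest values in double-positive cells. It stood at 82.6, 300.1 and 138 CPM in col9a2+ libraries, 253, 627 and 460.5 CPM in double-positive libraries and 78.8, 125 and 232 CPM in entpd5a+ libraries. The double-positive libraries lay above all entpd5a+ libraries and overlapped with col9a2+ library 2. The log2 differences were 1.36 ± 0.59 against col9a2+ cells (adjusted p = 0.285) and -1.62 ± 0.59 from double-positive to entpd5a+ cells (adjusted p = 0.15). Neither passed. Libraries of col9a2+ and double-positive cells with the same number deviated together across genes. In both populations only library 3 was deeper and high in hsp70l, so a block on the number also holds this split. With that number blocked in these 6 libraries, abcc6a rose by 1.44 in double-positive cells (adjusted p = 0.00525). In that fit 2 of the 7 genes were called, enpp1 and abcc6a, among 2228 of all 17534 genes tested. Blocking the number over all 9 libraries, this difference had an adjusted p of 0.0828, and the one from double-positive to entpd5a+ cells passed (-1.60, adjusted p = 0.0438).

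In mammals the main site of ABCC6 is the liver, so 4 liver markers were set beside abcc6a. They were above 0 in every library and summed to 35.05 to 686 CPM in col9a2+, 45.4 to 685 in double-positive and 124 to 539 in entpd5a+ libraries. In each population the library with the highest abcc6a level also had the highest liver sum, and in col9a2+ and entpd5a+ cells all 3 libraries had the same order in both. Double-positive library 3, by contrast, held abcc6a at 460.5 CPM with a liver sum of 45.4 CPM. The part of liver RNA in the abcc6a values was not tested.

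The abcc6b copies had their highest values in entpd5a+ cells. For abcc6b.1 the col9a2+ libraries held 0.364, 0.149 and 2.56 CPM. The double-positive libraries held 8.43, 1.56 and 7.74 CPM, and the entpd5a+ libraries 4.37, 26.8 and 30.05 CPM. All entpd5a+ libraries lay above all col9a2+ libraries, and double-positive libraries overlapped with each of the other populations. Between entpd5a+ and col9a2+ cells the log2 difference was 4.29 ± 1.18, which did not pass the test (adjusted p = 0.0733). The deeper libraries, also those high in hsp70l, were the highest in col9a2+ and in entpd5a+ cells. With depth as a term abcc6b.1 differed by 3.88 (adjusted p = 0.0271), and without col9a2+ library 3 by 6.29 (adjusted p = 0.0324). It also passed without entpd5a+ library 1 (4.77, adjusted p = 0.0472) and in DESeq2 (7.21e-04). For double-positive against col9a2+ cells abcc6b.1 did not pass (adjusted p = 0.293), whereas with the depth term it differed by 3.42 (adjusted p = 0.0433). Double-positive library 1, which held the endothelial markers, had the highest abcc6b.1 value of its population. The part of endothelial RNA in that value was not tested. For entpd5a+ against col9a2+ cells the within-depth differences were 3.45 in the deeper and 4.03 in the shallower libraries. For double-positive against col9a2+ cells they were 1.58, with 1 deeper library on each side, and 3.765.

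For abcc6b.2 the counts were 0, 1 and 55 in col9a2+ libraries, 69, 9 and 155 in double-positive libraries and 67, 749 and 684 in entpd5a+ libraries. A count of 0 in col9a2+ library 1 allows up to 0.0642 CPM, which covers counting error only. As CPM the entpd5a+ libraries held 1.51, 8.66 and 10.4, all above the col9a2+ libraries. The difference between these populations was 4.90 ± 1.62 on the log2 scale (adjusted p = 0.135). It was 8.93 without col9a2+ library 3 (adjusted p = 0.0387), and it passed with the depth term (0.0461) and in DESeq2 (0.0049). Reads shared by the abcc6b copies were not traced, and their division is uncertain. In the 6 libraries with 261 to 3070 reads for the pair, abcc6b.1 held between 74.3% and 84.5% of them. Summed as 1 gene, a choice made after seeing the data, they differed by 4.43 ± 1.22 between entpd5a+ and col9a2+ cells (adjusted p = 0.0729).

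The ANKH genes, which encode multipass membrane exporters, had their lowest means in double-positive cells. ENSDARG00000014969 stood at 16.8, 10.7 and 5.79 CPM in col9a2+ libraries, 4.14, 5.59 and 3.80 CPM in double-positive libraries, and 7.45, 31.6 and 37.1 CPM in entpd5a+ libraries. Double-positive libraries lay below all others, while col9a2+ and entpd5a+ libraries overlapped. From double-positive to entpd5a+ cells this gene rose 5.63-fold, by 2.49 ± 0.62 (adjusted p = 0.0422). The rise was 3.16 in the deeper libraries, also those high in hsp70l, and 0.63 in the shallower ones, where entpd5a+ has 1 library. With depth as a term the adjusted p was 0.0822. It was 0.0586 and 0.0906 with the replicate block in 9 and in 6 libraries, and 0.0724 in the fit of 6 libraries without it. Of the 9 fits that left out a library 2 kept the call. The call held when col9a2+ library 3 or entpd5a+ library 1 was dropped, and the log2 difference over all 9 lay between 2.11 and 2.93. Against col9a2+ cells the difference was -1.30 ± 0.60 for double-positive cells (adjusted p = 0.322) and 1.20 ± 0.59 for entpd5a+ cells (adjusted p = 0.357). The latter was 2.56 in the deeper libraries, with 1 col9a2+ library, and -0.845 in the shallower ones, with 1 entpd5a+ library.

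The other ANKH gene, ENSDARG00000071724, had between 5 and 229 reads in a library. Its levels were 0.257, 1.47 and 2.49 CPM in col9a2+ libraries, 0.112, 0.468 and 0.914 CPM in double-positive libraries, and 1.33, 2.65 and 2.63 CPM in entpd5a+ libraries. Here too the double-positive libraries lay below all entpd5a+ libraries. The log2 difference of 2.13 ± 1.09 between those populations did not pass (adjusted p = 0.312).

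**Figure D2:**
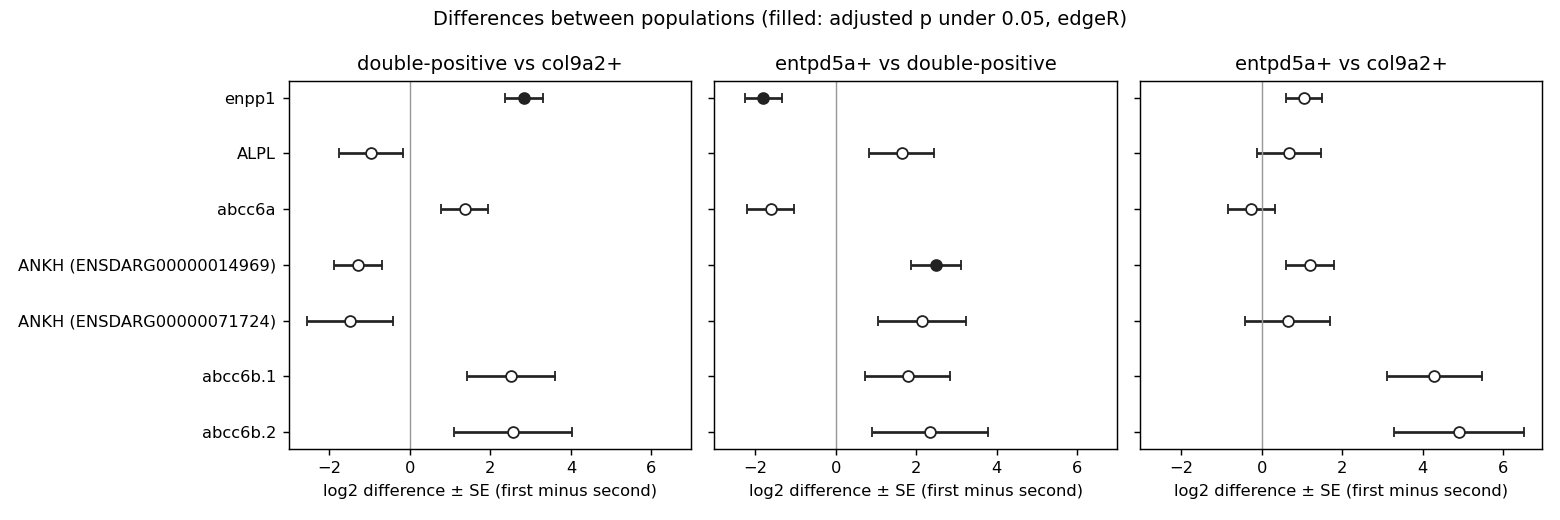
Log2 differences (points) with standard errors (bars) of the 7 tested genes in the 3 comparisons, first population minus second; filled points have an adjusted p under 0.05. Filled points are enpp1 at 2.84 and -1.80 and the ANKH gene ENSDARG00000014969 at 2.49.

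Of the 7 tested genes, 4 had a positive log2 difference from col9a2+ to double-positive cells, against 9623 of all 19039 genes tested. The medians were 1.36 and 0.01. From double-positive to entpd5a+ cells 5 of the 7 and 10047 of all genes were positive, with medians of 1.79 and 0.07. For entpd5a+ against col9a2+ cells 6 and 9682 were positive, with medians of 1.04 and 0.02. The 7 include both ANKH IDs and both abcc6b copies, whose division of reads is uncertain. These comparisons share libraries, and most of the differences behind the medians did not pass the test.

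To set maker against remover without library scaling, the reads of enpp1 were divided by those of alpl in each library. Gene length cancels between libraries, so the ratios are compared across libraries only. The ratio was 10.85, 28.3 and 41.0 in col9a2+ libraries, 100.5, 2123 and 524 in double-positive libraries, and 12.2, 32.9 and 58.0 in entpd5a+ libraries. Double-positive libraries lay above all others, and the col9a2+ and entpd5a+ ranges overlapped. On the log2 scale the means were 4.54 ± 0.99, 8.91 ± 2.20 and 4.83 ± 1.14 (SD, n = 3 libraries each). Without double-positive library 1 that population's mean was 10.04, and without library 2 it was 7.84. Without entpd5a+ library 1 the entpd5a+ mean was 5.45. The highest ratio rests on 25 alpl reads, with an exact 95% interval from 1438 to 3281 that covers counting error only.

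Another alkaline phosphatase gene, alpi.1, is on the wider pathway list. It stood at 18.5, 9.98 and 13.1 CPM in col9a2+ libraries, 80.3, 35.3 and 66.3 CPM in double-positive libraries, and 336, 260.5 and 249 CPM in entpd5a+ libraries. No populations overlapped. In double-positive cells alpi.1 rose by 2.13 ± 0.39 over col9a2+ cells (adjusted p = 0.0178), and in entpd5a+ cells by a further 2.22 ± 0.39 (adjusted p = 0.0115). Between entpd5a+ and col9a2+ cells the rise was 4.35 ± 0.43, or 20.3-fold (adjusted p = 0.00177), and it kept its call without each library in turn. The first of these calls was lost without col9a2+ library 2, col9a2+ library 3 or double-positive library 1 (adjusted p = 0.0877, 0.072 and 0.056). The osteoblast marker sum had the same order of populations, and within double-positive cells library 1 was highest and library 2 lowest in both. The part of osteoblast RNA in the alpi.1 values was not tested.

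With alpi.1 in place of alpl, a ratio chosen after its values were seen, enpp1 reads per alpi.1 read were 7.47, 22.5 and 15.5 in col9a2+ libraries. They were 11.5, 39.1 and 26.3 in double-positive libraries and 0.652, 1.99 and 1.72 in entpd5a+ libraries. The entpd5a+ libraries thus lay below all others by this ratio, whereas by the alpl ratio they overlapped with col9a2+ libraries.

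**Figure D3:**
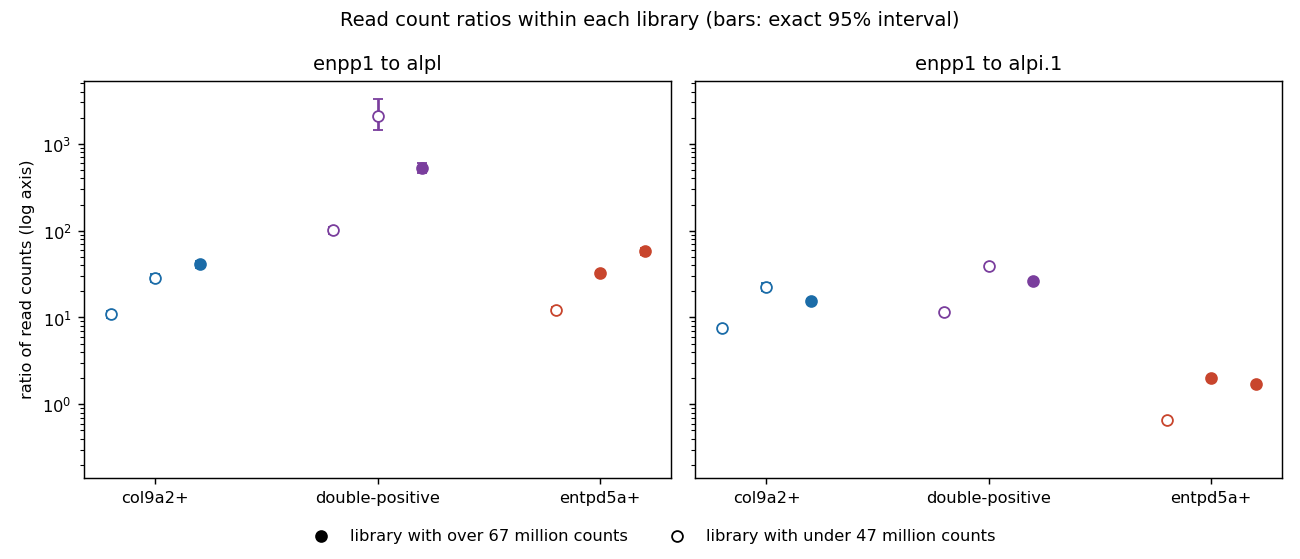
Read count ratios of enpp1 to alpl (left) and enpp1 to alpi.1 (right) in each library on a log axis, with exact 95% intervals; filled points are the 4 deeper libraries. The left ratio is highest in the 3 double-positive libraries (100.5 to 2123) and the right one lowest in the 3 entpd5a+ libraries (0.652 to 1.99).

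The wider pathway list held 69 entries, of which 5 had no match. They covered extracellular nucleotide, pyrophosphate, phosphate and adenosine handling and 4 mineral partners, PHOSPHO1, SMPD3, PHEX and spp1. The entries gave 66 gene IDs, and 57 passed the count filter. In entpd5a+ against col9a2+ cells 8 of the 57 rose and 2 fell, 17.5% against 5.02% of all genes. All 4 mineral partners were among the 8 rises. From double-positive to entpd5a+ cells 10 rose and 2 fell, 21.1% against 6.51%, with PHOSPHO1, SMPD3 and PHEX among the rises. From col9a2+ to double-positive cells 2 rose and 1 fell, 5.26% against 3.54%. The list, with its mineral partners, was chosen with earlier results of these data known. These shares are therefore descriptions and not a test of the list. The median log2 differences of the list were 0.864, 0.855 and -0.02 in that order, against 0.02, 0.07 and 0.01 over all genes. Without double-positive library 1 the calls numbered 10, 11 and 2, in the same order, and with depth as a term 10, 13 and 7. Over all genes the first of these fits called 994, 1005 and 451, and the fit with depth 1242, 1795 and 1314. The 12 calls between entpd5a+ and double-positive cells became 6 without double-positive library 2 and 7 without entpd5a+ library 2. Without any 1 of the col9a2+ libraries, 1 call was left between double-positive and col9a2+ cells.

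Downstream of ENPP1 lies AMP, which NT5E, the ecto-5'-nucleotidase CD73, converts to adenosine and phosphate. NT5E stood at 109, 96.9 and 119 CPM in entpd5a+ libraries, against 10.6 to 15.2 CPM in col9a2+ and 7.52 to 24.4 CPM in double-positive libraries. It rose by 3.14 ± 0.44 in entpd5a+ over col9a2+ cells (adjusted p = 0.00493) and by 2.88 ± 0.43 over double-positive cells (adjusted p = 0.00658). Both calls held without each library. ADORA2B, an adenosine receptor gene, was also highest in entpd5a+ cells, at 14.7, 20.4 and 35.1 CPM. It did not exceed 3.17 CPM in the other 6 libraries and rose by 4.39 ± 0.59 over double-positive cells (adjusted p = 0.00398). Against col9a2+ cells it was called as well, but not without col9a2+ library 2 (adjusted p = 0.0556).

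The nucleoside carrier gene SLC29A1 (ENSDARG00000054447), whose product moves adenosine across the membrane, went the other way. It stood at 3.58, 2.15 and 2.34 CPM in entpd5a+ libraries, at 24.0, 68.0 and 36.4 CPM in col9a2+ libraries and at 44.4, 119 and 76.0 CPM in double-positive libraries. No entpd5a+ library reached the range of the others. It fell by 4.89 ± 0.55 from double-positive cells (adjusted p = 0.00326) and fell by 3.99 ± 0.53 from col9a2+ cells (adjusted p = 0.00419), and both calls held without each library. The second ID named SLC29A1 (ENSDARG00000101289) was not called in any comparison.

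Of the 6 tested IDs of other ENPP enzymes, ENPP2 and ENPP6 were called in at least 1 comparison. ENPP6, a choline-specific phosphodiesterase gene, had 0, 6 and 10 reads in double-positive libraries, that is at most 0.156 CPM. It stood at 1.51 to 5.97 CPM in col9a2+ and 6.58 to 12.05 CPM in entpd5a+ libraries. On the log2 scale ENPP6 fell by 5.12 ± 1.03 between col9a2+ and double-positive cells (adjusted p = 0.0254), and it rose by 6.49 ± 1.09 from those to entpd5a+ cells (adjusted p = 0.00934). The fall was lost without any 1 of 4 libraries, col9a2+ 1 and 3 and double-positive 2 and 3 (adjusted p between 0.0528 and 0.0714). It was also lost in the fits of the 6 libraries compared, with the replicate block (0.0753) and without it (0.0775). The rise held without each library. ENPP2, which encodes the lysophospholipase autotaxin, rose from double-positive to entpd5a+ cells (adjusted p = 0.0128, and 0.0528 without double-positive library 2). Its log2 difference of 3.24 was 4.05 without double-positive library 3. Both had their lowest mean in double-positive cells. ENPP5, which was not called, had its highest mean there, at 3.42 CPM against 0.841 CPM in col9a2+ and 0.704 CPM in entpd5a+ cells.

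Phosphate carriers were also divided. SLC20A1 (ENSDARG00000020114), a sodium-phosphate importer gene, had the order of enpp1, with 862 to 2219.8 CPM in double-positive libraries against 43.8 to 168 CPM in col9a2+ and 102 to 325 CPM in entpd5a+ libraries. It rose into double-positive cells by 3.92 ± 0.69 (adjusted p = 0.0146) and fell from there to entpd5a+ cells (adjusted p = 0.0257). The rise was lost without col9a2+ library 1 or 2 (adjusted p = 0.0626 and 0.0728). The fall was lost without double-positive library 2 or 3 or entpd5a+ library 1 or 2 (adjusted p between 0.0544 and 0.107), and its log2 difference of -3.02 was -3.65 without entpd5a+ library 3. SLC34A1 (ENSDARG00000028824) fell from col9a2+ to entpd5a+ cells (adjusted p = 0.0375), a call that, of the 9 fits leaving out a library, held in the 2 without col9a2+ library 1 or double-positive library 1. XPR1, a phosphate exporter gene, was called higher in entpd5a+ than in double-positive cells (adjusted p = 0.0155). It had 0, 0 and 1 reads in double-positive libraries and 69, 233 and 184 reads in entpd5a+ libraries, and its call was lost without double-positive library 2 or entpd5a+ library 2. Its mean in entpd5a+ cells was 2.35 CPM. The related gene xpr1b averaged 20.1 CPM in col9a2+, 28.6 in double-positive and 36.6 in entpd5a+ cells. Neither xpr1b, SLC20A2 nor the second SLC20A1 ID (ENSDARG00000010641) was called in any comparison.

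The remaining calls were rises in entpd5a+ cells of genes that act beside pyrophosphate removal. Phosphate-releasing PHOSPHO1, the mineralization peptidase PHEX, the neutral sphingomyelinase SMPD3 and the ATP-release channel PANX3 were called over both other populations, and spp1, which encodes the mineral-binding osteopontin and is also on the osteoblast list, over col9a2+ cells. Over double-positive cells spp1 differed by 2.95 (adjusted p = 0.0603). PHEX stood at 1505, 1965 and 1037 CPM in entpd5a+ libraries, against 63.6 to 243 CPM in double-positive and 24.2 to 63.9 CPM in col9a2+ libraries. PHOSPHO1 ranged from 114 to 463 CPM in entpd5a+ libraries and did not exceed 44.8 CPM elsewhere. For PANX3 the lowest entpd5a+ library held 544 CPM and the highest other library 212.5 CPM, double-positive 1. Without that library the log2 difference of PANX3 between entpd5a+ and double-positive cells was 3.67, against 2.97. Over double-positive cells the PANX3 call was lost without double-positive library 2 or 3 or entpd5a+ library 1 or 2 (adjusted p between 0.0554 and 0.0923). The calls of PHOSPHO1 (0.0535 to 0.0591) and SMPD3 (0.089 to 0.101) were lost without double-positive library 1 or 2 or entpd5a+ library 2. In fits of the 6 libraries compared, SMPD3 was lost with and without the replicate block, PHOSPHO1 with it and PANX3 without it. The calls over col9a2+ cells held without each library. Without col9a2+ library 1 the log2 differences of PANX3, SMPD3 and spp1 over col9a2+ cells were 6.30, 6.49 and 5.89, against 5.68, 5.78 and 5.17. That of SMPD3 was 5.11 without entpd5a+ library 2. The osteoblast marker sum was highest in entpd5a+ cells as well, and library 2 was lowest within col9a2+ and within double-positive cells for that sum and for PHEX, PHOSPHO1, SMPD3, PANX3 and spp1. The part of osteoblast RNA in these rises was not tested.

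**Figure D4:**
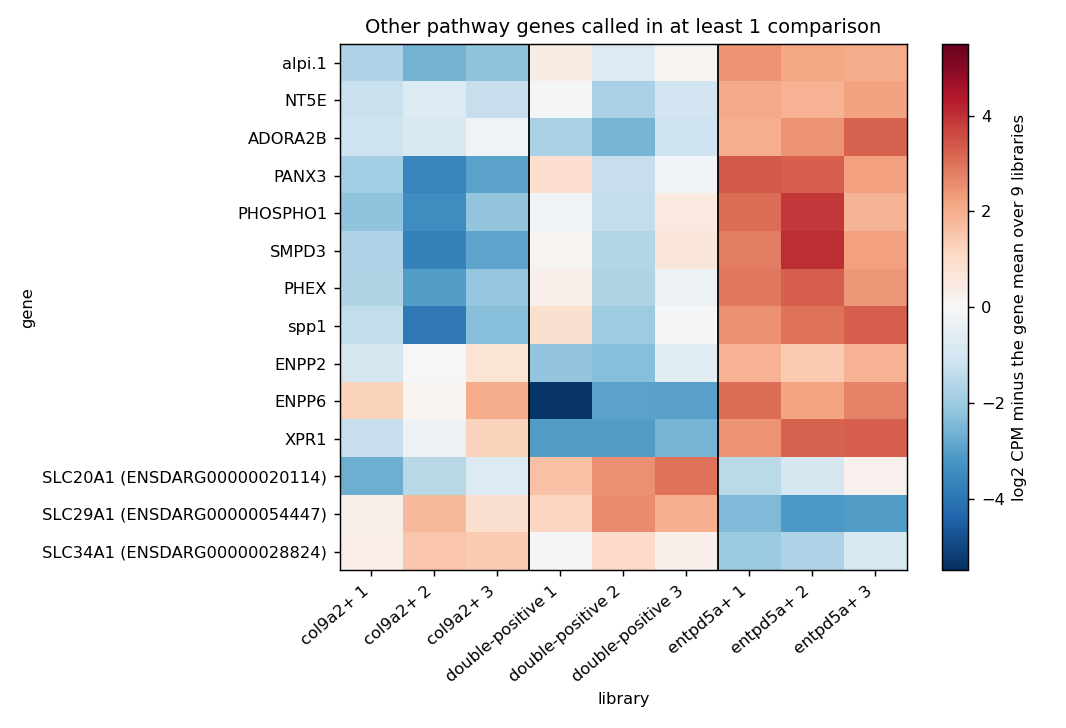
Centred log2 CPM (colour, gene mean over the 9 libraries set to 0) of the 14 other pathway genes called in at least 1 comparison, one column per library. Most are highest in entpd5a+ cells; SLC20A1 (ENSDARG00000020114) is highest in double-positive cells, and the SLC29A1 and SLC34A1 genes are lowest in entpd5a+ cells.

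Genes with the most similar profiles were sought among the 10691 genes that averaged 5 CPM or more, by the root mean square difference of centred log2 CPM over the 9 libraries. Nearest to entpd5a were dkk1a, a Wnt antagonist gene (0.49), CEMIP, a hyaluronan-degrading protein gene (0.65), and BMP3 (0.67). The profile of enpp1 was closest to FZD8 (ENSDARG00000045444), a Wnt receptor gene (0.21), PDZRN3 (ENSDARG00000073869, 0.33) and the lysyl oxidase gene loxl2a (0.35). For abcc6a the nearest were UPP1, a uridine phosphorylase gene (0.30), scarb2a (0.32) and PERP (0.37). CTSK, the collagen-degrading cathepsin K (0.38), LRRC17 (0.41) and marcksl1a (0.46) were nearest to alpl, and CTSK is also on the osteoclast list. ANKH (ENSDARG00000014969) lay nearest to CLIP2 (0.56), with ZC3H12A (ENSDARG00000101034) and NTMT1 at 0.60 each. Those nearest to abcc6b.1 were sox18 (0.55), HSPB1 (0.80) and atf5a (0.84). These distances are in log2 units and describe 9 libraries that share their depth groups. ANKH (ENSDARG00000071724) and abcc6b.2 were below the expression limit of this search.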

How the data were processed

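Per the labels, notochord sheath cells of 13-day-old zebrafish were sorted by fluorescence, and ultra-low-input libraries were made from total RNA. For each library the authors deposited unnormalized read counts by Ensembl ID. HISAT2, HTSeq and build GRCz10 are named, per the submitters' processing notes; versions, annotation release and strand setting are not given in the sources used here. Antisense or overlapping genes and near-identical copies may therefore share reads. Of 32266 IDs, 81.9% had a name.

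The main test used edgeR 4.0.16 (R 4.3.3): filterByExpr (19039 genes), TMM factors, a quasi-likelihood fit with robust dispersion on all 9 libraries (common dispersion 0.588), and two-sided F tests per pair of populations. Adjusted p values (Benjamini-Hochberg over all genes) under 0.05 were called. Standard errors are the absolute log2 difference divided by the square root of F, and log2 CPM use a prior count of 2. Ratio intervals are Clopper-Pearson at 95%. The test was also run on simulated counts that held no effect of depth group or replicate number on single genes. Changes were set only in genes averaging at least 5 CPM, and no result here rests on that run.

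Genes and lists were chosen with earlier results of these data known, so counts over them are descriptions. The rule named the 7 pyrophosphate balance genes, every called pathway gene (values for at most 6 per comparison) and the 3 nearest profiles of each gene with a mean of at least 5 CPM. List entries were matched by symbol, in any case or without the paralog letter. As alternatives, factors were set by RLE or by the upper quartile; others were no filter, a mean of at least 10 CPM, DESeq2 1.42.0, fits of 6 libraries, a replicate block, a depth term, and each library left out. Same-numbered deviations correlated across genes at 0.18, 0.22 and 0.33 for double-positive and col9a2+ libraries. The main test held no block, and the replicate block that treats the numbers as pairing was run only among the alternatives. For number 2 in entpd5a+ libraries the values were -0.11 with col9a2+ and -0.10 with double-positive libraries. For numbers 1 and 3 they were 0.21 and 0.2 with col9a2+ and 0.13 and 0.15 with double-positive libraries. Marker lists covered sheath, vacuolated, osteoblast, endothelial, leukocyte, osteoclast, erythroid, muscle, epidermis, neural, liver and stress genes.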

Additional observations from a re-analysis of the deposited data

How the results depend on the processing

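With edgeR, the counts of called genes (955 for entpd5a+ against col9a2+, 674 for double-positive against col9a2+, 1240 for entpd5a+ against double-positive) depended on single libraries. Leaving out each of the 9 libraries gave 353 to 994, 242 to 787 and 525 to 1064 genes. The first count was 483, 353 and 574 without col9a2+ library 1, 2 and 3 and 403 without entpd5a+ library 2. The second was 242, 270 and 373 without those col9a2+ libraries and 347 without double-positive library 2, and the third 551 without double-positive library 2 and 525 without entpd5a+ library 2. Of the 7 pyrophosphate balance genes tested, 0 to 2, 0 to 1 and 0 to 1 were called in these fits, against 0, 1 and 2 with all libraries. The 2 came without col9a2+ library 3. For the pathway list the ranges were 8 to 10, 1 to 3 and 6 to 12, with 1 called in the second without each col9a2+ library, and 6 and 7 in the third without double-positive and entpd5a+ library 2.

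DESeq2 called 2159, 2026 and 2874 genes, 2 of the 7 for entpd5a+ against col9a2+, and 13 and 20 pathway genes in the comparisons with double-positive cells. The replicate block in the 6 double-positive and col9a2+ libraries called 2228 genes, 2 of the 7 and 13 pathway genes, and in all 9 libraries 1024 genes for that pair. For entpd5a+ against col9a2+ the block called 2 of the 7 with 6 libraries and 1 with 9, and for entpd5a+ against double-positive 0 with 6 and 2 with 9. Those last 2 were enpp1 and abcc6a, both lower, and ANKH (ENSDARG00000014969) was no longer called. In the same order, these fits called 1371, 1378, 879 and 1684 genes in all. The depth term called 1314 genes and 7 pathway genes for double-positive against col9a2+. It called 1242 genes for entpd5a+ against col9a2+ and 1795 for entpd5a+ against double-positive, and 2, 2 and 1 of the 7 in the order above. For entpd5a+ against double-positive the fit of 6 libraries called 758 genes and 0 of the 7, and RLE factors 1 of the 7 (enpp1 missed, adjusted p = 0.0507). In the block check, 6 of 6 col9a2+ and double-positive libraries deviated most like their own number. In the pairs with entpd5a+ cells 3 of 6 and 2 of 6 did. Whether the number pairs libraries of any populations is not stated in the sources used here. The cause of these shifts was not tested.

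The sign of abcc6a between entpd5a+ and col9a2+ cells turned without col9a2+ library 2 (0.40) and without entpd5a+ library 1 (0.04), within a range of -0.81 to 0.40. No other log2 difference of the 7 genes changed sign under these alternatives. Inside the depth groups, however, 2 differences between entpd5a+ and col9a2+ cells differed in sign. These were abcc6a (0.30 in the deeper, -0.998 in the shallower libraries) and ANKH (ENSDARG00000014969, 2.56 and -0.845). Without each library in turn, the mean log2 ratio of enpp1 to alpl ran from 4.13 to 5.09 in col9a2+, 7.84 to 10.04 in double-positive and 4.32 to 5.45 in entpd5a+ cells. With 2 reads added to both counts the means were 4.53, 8.87 and 4.83. The limit of 10 CPM removed alpl, ANKH (ENSDARG00000071724) and both abcc6b copies. Counts of 25 reads or fewer limit alpl, ANKH (ENSDARG00000071724) and both abcc6b copies in single libraries.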

Other observations

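Some receptor genes for ATP and adenosine, chosen after their values were seen, varied between libraries without passing the test. The ATP-gated channel gene p2rx1 stood at 49.2, 30.4 and 9.54 CPM in col9a2+ libraries, 3.29, 0.208 and 0.575 CPM in double-positive libraries and 6.06, 0.671 and 0 CPM in entpd5a+ libraries. The col9a2+ libraries lay above the other 6.

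The adenosine receptor genes ADORA2A and adora2ab reached 19.9 and 12.5 CPM in double-positive library 1, the library with the endothelial markers. In the other 8 libraries they did not exceed 3.40 and 2.35 CPM.

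Summed marker levels of other cell types varied as follows. Leukocyte markers (7 IDs) summed to 6.19 to 46.6 CPM over the 9 libraries, osteoclast markers (3) to 2.52 to 54.75, erythroid markers (3) to 0.0116 to 6.31, muscle markers (6) to 21.5 to 369 and neural markers (5) to 22.3 to 105. Epidermis markers (5) summed to 2436 to 11587 CPM and vacuolated-cell markers (4) to 333 to 944 CPM.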
